A study of Mus musculus with 6 samples.

Results

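The complement genes of the pressure-overloaded left ventricle were taken as the 9 rows of the count table named C1qa, C1qb, C1qc, C3, C4b, Cfb, Cfd, Serping1 and C3ar1, of 54532 genes in all. They cover the recognition protein, the central cascade, an inhibitor and a receptor of one pathway, and 8 of them had enough counts to be tested.

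Complement is a cascade of secreted proteins that tags cells and debris and recruits phagocytes. The classical pathway opens when C1q, built from the chains A, B and C, binds its target and activates the proteases C1r and C1s, which cleave C4 and C2. The alternative pathway amplifies the cleavage of C3 through factor B and factor D, and C1 inhibitor holds the classical steps back. Most plasma complement is made in the liver, whereas resident macrophages are a well-known source of C1q in tissues, and fibroblasts can make C3, C4, C1r, C1s and C1 inhibitor.

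RNA came from the left ventricle of male mice 4 weeks after aortic banding (AB), which narrows the aorta and loads the heart with pressure, and the mice were 8 to 10 weeks old at surgery. The 3 TG mice are labelled HINT2CTG-Myh6Cre and carry a CAG-HINT2 transgene that Myh6Cre switches on in cardiomyocytes after tamoxifen at 5 mg/kg/d for 7 days. The 3 NTG mice are labelled C57BL/6J, their label names no Cre, and the methods state no tamoxifen for them, so the transgene, Cre and tamoxifen cannot be told apart. Each library was made from poly-A selected RNA, and the methods give 3 mice for the 3 libraries of each group.

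The libraries held 14863568 to 17581220 counts on genes in NTG and 14944465 to 17235802 in TG. Hint2, the targeted gene, had 545 and 559 counts in NTG 2 and NTG 3 and 793 to 859 counts in TG, whereas the library labelled NTG 1 had 12, which goes against its label. The fold changes of the complement genes and the medians of the members, the wider pathway and its inducers are therefore given with and without it. Cardiomyocyte markers, 8 genes such as Myh6 and Tnnt2, summed to between 21130 and 42700 CPM (gene counts set on 1 library size with TMM factors), the highest of the cell type lists in every library. Hepatocyte markers summed to between 0.216 and 1.54 CPM over 5 genes, so the RNA of the organ that makes most plasma complement was close to 0. Because these are bulk samples, fewer cells of a type and less RNA per cell cannot be told apart.

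The 3 C1q chains are neighbours on chromosome 4 of GRCm38, within 18675 bases and all on the minus strand. C1qb lies at chr4:136880129-136886187, C1qc at chr4:136889804-136893065 and C1qa at chr4:136895917-136898803, each with 3 exons. C3 (chr17:57203970-57228136, 41 exons), C4b (chr17:34728380-34743882, 41 exons) and Cfb (chr17:34856374-34862518) are on the minus strand of chromosome 17. Cfd (chr10:79890853-79892655) is on the plus strand, and Serping1 (chr2:84765387-84775444) and C3ar1 (chr6:122847138-122856161) are on the minus strand.

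Promoter windows of 300 bases, 250 before and 50 after the annotated start, were found in RefSeq (GRCm38.p6) for 5 of the 9 genes. Those of C1qb, C1qc and C3 are shown, the first pair because the C1q chains moved together from heart to heart and C3 because it varied most among the abundant genes. They read 5′ to 3′ along the minus strand, at chr4:136886151-136886450, chr4:136892865-136893164 and chr17:57228087-57228386. Capitals mark matches, on either strand, to 5 motifs that were chosen after the sequences had been seen, namely the PU.1 letters AGGAAGT of the ETS family, the C/EBP letters TTGCGNAA, the AP-1 letters TGACTCA, the TATA box letters TATAAA and the letters TGCTGA of the MAF core.
C1qb: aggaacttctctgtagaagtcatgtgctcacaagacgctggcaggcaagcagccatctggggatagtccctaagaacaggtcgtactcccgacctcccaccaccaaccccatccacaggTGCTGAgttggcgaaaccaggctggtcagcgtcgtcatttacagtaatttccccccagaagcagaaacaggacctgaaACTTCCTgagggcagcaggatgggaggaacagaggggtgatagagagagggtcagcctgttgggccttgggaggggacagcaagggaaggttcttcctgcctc
C1qc: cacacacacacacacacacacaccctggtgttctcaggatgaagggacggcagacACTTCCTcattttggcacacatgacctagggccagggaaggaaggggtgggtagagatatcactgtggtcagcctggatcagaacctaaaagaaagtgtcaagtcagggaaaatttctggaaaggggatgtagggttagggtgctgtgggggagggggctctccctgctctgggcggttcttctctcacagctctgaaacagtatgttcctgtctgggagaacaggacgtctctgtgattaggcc
C3: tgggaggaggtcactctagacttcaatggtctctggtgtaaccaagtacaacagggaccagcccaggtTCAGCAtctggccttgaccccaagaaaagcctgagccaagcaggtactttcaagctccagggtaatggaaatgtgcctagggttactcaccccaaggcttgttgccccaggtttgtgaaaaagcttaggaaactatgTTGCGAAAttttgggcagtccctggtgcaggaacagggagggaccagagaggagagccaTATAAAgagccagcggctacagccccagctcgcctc

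Both C1q windows hold the ETS letters once, read on the opposite strand as ACTTCCT, from position −53 in C1qb and −195 in C1qc, where positions count from the annotated start. PU.1, a factor of macrophages and other myeloid cells, binds such letters, and 9.35% of 32851 RefSeq windows of the same length hold this one. The C3 window holds TTGCGAAA, a C/EBP match, from −45, and 0.798% of all windows hold one. It also holds a TATAAA from 15 after the annotated start, as 13.6% of windows do somewhere. C1qb and C3 each hold the MAF core, which 19.5% of windows hold. Of the windows not printed, C3ar1 holds TGACTCA from −22, found in 5.2% of windows, with TATAAA and the MAF core, and Cfd holds none of the 5. AP-1 and MAF letters can overlap by sharing TGA, and each match is a description of the letters only.

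Levels can be compared between genes only per length, and on CPM per kilobase of exon the abundant genes were C1qa with a mean of 143 over the 6 libraries, C1qb with 133, Serping1 with 128, C3 with 98.2 and C1qc with 57.9. C4b followed at 21.4, and C3ar1 at 2.84, Cfd at 1.74 and Cfb at 0.191 were low. The ranges over libraries of C1qa, C1qb, Serping1 and C3 overlapped, and that of C3, from 33.4 to 306, was the widest and held the range of C1qc. C4b was above C3ar1 in each library, whereas C3ar1 and Cfd overlapped. With the length of the longest transcript in place of all exons, Serping1 at 168 stood above C1qa at 143, and C1qc was at 92.9, since 1203 of its 1931 exon bases are in that transcript.

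Some counts are less certain than others. Of 100-base windows of the longest Cfb transcript, 81% are also in Gm20547, an annotated gene that covers most of Cfb and part of C2 (chr17:34856412-34882042, same strand) and has 0 counts in all 6 libraries. The handling of reads that fall on overlapping genes is not given in the sources used here, so Cfb and C2 may be undercounted. C4b shares 16.5% of its windows with C4a, which had 2 to 7 counts against 771 to 4650 for C4b. No such sharing was found for the other 7 genes.

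The comparison of TG with NTG asks which transcripts differ in hearts that overexpress HINT2 under pressure overload. Of the 8 complement genes tested, 7 had a lower fitted level in TG and 1, Cfd, a higher one, with a median log2 fold change of −0.50 beside −0.008 over the 14774 genes tested. Without NTG 1 these medians were −0.73 and −0.011. None was called by edgeR's quasi-likelihood test, which asked for an adjusted p under 0.05 together with a log2 fold change beyond 0.5 in either direction, and the same held for all genes (0% called lower and 0% called higher). At an unadjusted p under 0.05, Serping1 and C4b were lower, 2 of 8 against 9.76% of all genes lower and 8.83% higher. Only Serping1 had each TG library below each NTG library, 1 of 8 against 12.3% of all genes, and none had the reverse order, seen in 11.2%. A count of 1 in 8 is near the share of all genes. DESeq2 on the same genes called Serping1 lower and no other complement gene, where it called 2.39% of all genes lower and 1.54% higher, and edgeR's likelihood-ratio test called the same gene, with 2.29% called lower. Serping1 was also the only complement gene called by the quasi-likelihood test without NTG 1, where 2.85% of 15136 genes were called lower and 2.67% higher.

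**Figure D1:**
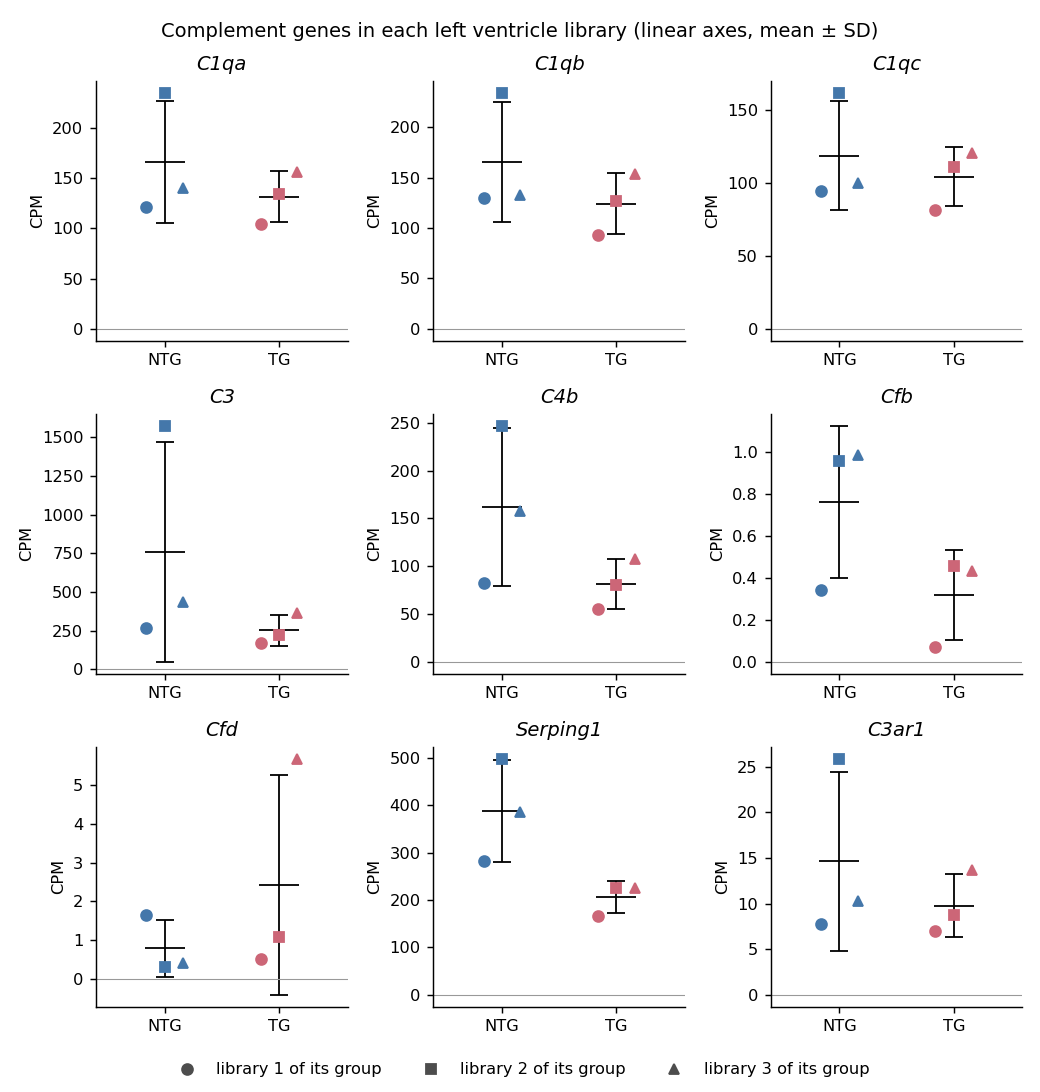
CPM (TMM-normalised, linear axes from 0) of the 9 complement genes in the 3 NTG and 3 TG libraries, where each point is a library, the long bar the mean and the whisker the SD. NTG 2 is the highest library for 7 of the 9 genes and TG 1 the lowest for 8, and only Serping1 has groups that do not overlap.

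The chains of C1q, the recognition molecule of the classical pathway, were close to each other in every heart. C1qa was 121.5, 235 and 141 CPM in NTG 1 to 3 and 105, 134.5 and 156 CPM in TG 1 to 3. C1qb was 129.8, 234 and 133 CPM in NTG and 93, 126.5 and 153 CPM in TG. C1qc was 94.6, 162 and 100.3 CPM in NTG and 81.6, 111 and 121 CPM in TG. For all 3 chains NTG 2 stood highest and TG 1 lowest, and the groups overlapped. Per length, C1qb was 0.848 to 1.02 times C1qa and C1qc 0.371 to 0.445 times C1qa over the 6 libraries, so the ratio between chains moved less than their levels did from heart to heart.

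The mean of C1qa was 166 ± 60.8 CPM in NTG and 132 ± 25.6 CPM in TG (SD, n = 3 each). Its log2 fold change was −0.33 (edgeR, standard error SE = 0.27, adjusted p = 0.521), that of C1qb −0.42 (SE 0.28, adjusted p = 0.442) and that of C1qc −0.19 (SE 0.24, adjusted p = 0.693). For each chain the difference of the means was smaller than the SD of the NTG hearts. For C1qa and C1qb it was larger than the SD of the TG hearts. Without NTG 2 the log2 fold changes were 0.01, −0.08 and 0.10, so C1qa and C1qc changed sign and C1qb did not. Without NTG 1 they were −0.52, −0.57 and −0.33 (adjusted p = 0.261, 0.303 and 0.446, edgeR).

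C3, on which all activation routes converge, varied most among the abundant genes. It was 268, 1574 and 434 CPM in NTG 1 to 3 and 172, 221 and 361 CPM in TG 1 to 3. NTG 2 stood far above the other 5 hearts, and TG 3 lay above NTG 1. The mean was 759 ± 711 CPM in NTG and 251 ± 98.2 CPM in TG (SD, n = 3 each), with a log2 fold change of −1.59 (edgeR, SE 0.67, adjusted p = 0.272). Without NTG 2 it was −0.48 (adjusted p = 0.675, edgeR), and without NTG 1 it was −2.00 (adjusted p = 0.148, edgeR).

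C4b, the target of C1s that carries the classical pathway forward, had the same high heart. It was 82.1, 247 and 158 CPM in NTG and 55.6, 80.2 and 108 CPM in TG. NTG 1 lay with the TG hearts, within their range, and the other NTG hearts lay above them. The log2 fold change was −1.0 (edgeR, SE 0.42, unadjusted p = 0.0496, adjusted p = 0.268), −1.32 without NTG 1 (adjusted p = 0.0806, edgeR) and −0.57 without NTG 2 (adjusted p = 0.649, edgeR). DESeq2 gave it an adjusted p of 0.0821. Per length, C3 was 3.04 to 3.71 times C4b in 5 hearts and 7.06 times in NTG 2.

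Cfb, which encodes factor B, the protease of the alternative pathway, was near the detection limit, with 5, 18 and 17 counts in NTG and 1, 8 and 7 counts in TG. It was 0.341, 0.956 and 0.984 CPM in NTG and 0.0721, 0.455 and 0.432 CPM in TG, and the groups overlapped through NTG 1. It did not pass the low-count filter. In a fit without that filter its log2 fold change was −1.22 (edgeR, SE 0.64, adjusted p = 0.441), and 0.432% of the 26858 genes of that fit were called lower. Without NTG 1 it passed the filter, at −1.54 (adjusted p = 0.158, edgeR), and without NTG 2 it did not pass.

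Cfd, which encodes factor D (adipsin), the protease that activates factor B and is best known from fat, was the one complement gene with a higher fitted level in TG. It had 24, 6 and 7 counts in NTG 1 to 3 and 7, 19 and 92 counts in TG 1 to 3. In CPM it was 1.64, 0.319 and 0.405 in NTG and 0.505, 1.08 and 5.68 in TG. TG 3 stood alone, NTG 1 was the next highest and the groups overlapped. The log2 fold change was 1.67 (edgeR, SE 1.0, adjusted p = 0.396). It fell to 0.08 without TG 3 and was 2.73 without NTG 1 (adjusted p = 0.974 and 0.216, edgeR), so single libraries set its size. Without NTG 2 it was 1.28 (adjusted p = 0.732, edgeR).

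The hearts with more Cfd were those with more transcripts of atrial muscle. Sln, Myl7 and Myl4, genes of atrial cardiomyocytes, summed to 67.5, 2.18 and 2.2 CPM in NTG 1 to 3 and 4.54, 29.2 and 167 CPM in TG 1 to 3. Of the fat markers, some were highest in TG 3 and others were not. Car3 was 1.16, 0.372 and 0.463 CPM in NTG and 0.144, 0.739 and 4.38 CPM in TG, while Adipoq, Plin1 and Cidec were at or below 0.988 CPM in each library and highest in TG 3, and Lep had 0 counts in all 6. Pparg, Lipe and Slc7a10 were highest in NTG 3, Cidea in TG 1, and Ucp1 was at 0 in TG 3. The summed adipocyte list of 12 genes, 311 to 383 CPM in NTG and 325 to 456 CPM in TG, was mostly Pnpla2, which heart muscle also expresses. The part of atrial or fat tissue in the Cfd values was not tested.

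**Figure D2:**
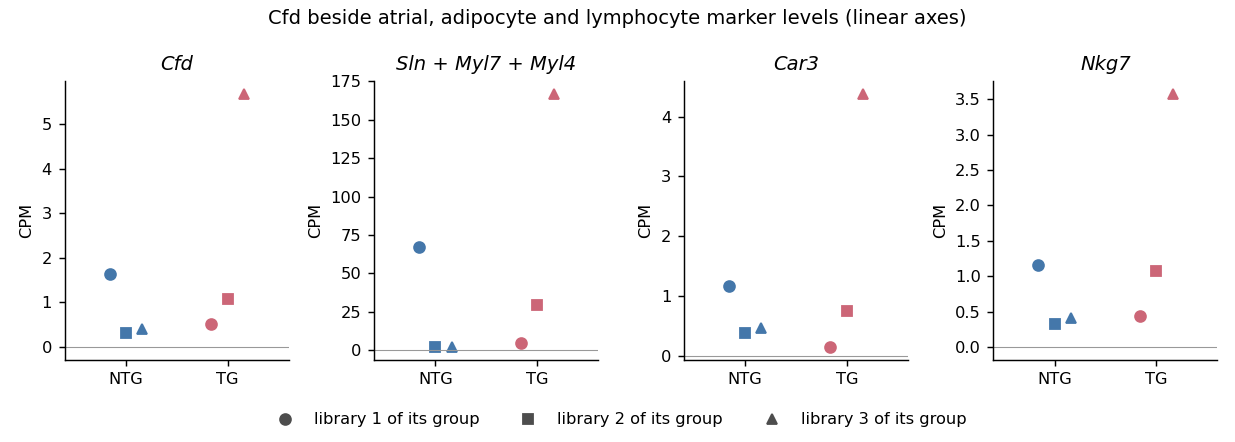
CPM (linear axes) of Cfd, of Sln, Myl7 and Myl4 summed, of Car3 and of Nkg7 in each of the 3 NTG and 3 TG libraries, 1 point per library. TG 3 is the highest library in each panel, with 5.68 CPM of Cfd and 167 CPM of the atrial genes, followed by NTG 1 and TG 2.

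Serping1, which encodes C1 inhibitor, the protein that stops C1r, C1s and the MASP proteases, was the only one of the 9 with separate groups. It was 282, 498 and 385 CPM in NTG 1 to 3 and 167, 225 and 225 CPM in TG 1 to 3. Each TG heart lay below each NTG heart (p = 0.1 in a two-sided exact permutation test, which cannot go lower with 3 against 3). The mean was 388 ± 108 CPM in NTG and 206 ± 33.7 CPM in TG (SD, n = 3 each). The log2 fold change was −0.92 (edgeR, SE 0.22, unadjusted p = 0.00325, adjusted p = 0.196), which missed the threshold over all genes.

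The call on Serping1 depended on the test. The adjusted p was 0.00476 in DESeq2 and 0.0115 in edgeR's likelihood-ratio test, and 0.0215 in the quasi-likelihood test without NTG 1, where the log2 fold change was −1.10. Over all alternatives the adjusted p ranged from 0.00476 to 0.441 and the log2 fold change from −1.10 to −0.70, with the value of −0.70 coming from the fit without NTG 2 (adjusted p = 0.409, edgeR).

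C3ar1, the receptor for the C3a fragment on myeloid cells, was 7.78, 25.9 and 10.2 CPM in NTG and 7, 8.75 and 13.6 CPM in TG. NTG 2 again stood highest, TG 3 next, and the groups overlapped. The log2 fold change was −0.58 (edgeR, SE 0.48, adjusted p = 0.535) and 0.12 without NTG 2 (adjusted p = 0.903, edgeR). Without NTG 1 it was −0.88 (adjusted p = 0.304, edgeR).

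**Figure D3:**
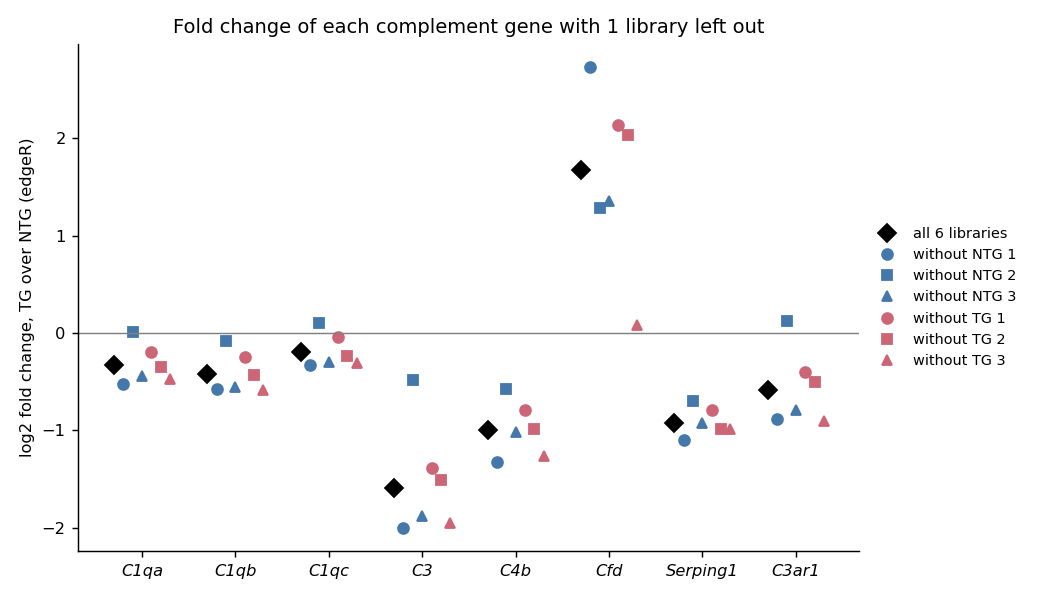
Log2 fold change, TG over NTG, from edgeR for the 8 complement genes tested, with all 6 libraries (black diamonds) and with 1 NTG library (blue) or 1 TG library (red) left out. Without NTG 2 the values of C1qa, C1qc and C3ar1 cross 0, Cfd falls to 0.08 without TG 3, and Serping1 stays between −1.10 and −0.70 over the 6 fits.

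NTG 2 was thus the heart on which most of these values turned. Without it 4 of the 8 genes had a lower and 4 a higher fitted level, with a median log2 fold change of −0.04, whereas leaving out any other library kept 7 lower, with medians from −0.75 to −0.32. NTG 2 also held the highest level of 14 of 17 macrophage markers, of 9 of 11 fibroblast markers and of 5 of 6 neutrophil markers. Neutrophil markers, led by S100a8 and S100a9, summed to 220 CPM in NTG 2 and to 4.04 to 29.3 CPM in the other libraries. Cardiomyocyte markers were lowest there, at 21130 CPM against 28870 to 42700 in the others. The part of these cell types in the complement values was not tested.

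Macrophage markers, 17 genes including Adgre1 and Csf1r, summed to 1183 to 2086 CPM in NTG and 991 to 1680 CPM in TG, with overlap. The overlap came from Cd74, an antigen presentation gene, which was 733 CPM in TG 3 and 170 to 384 CPM in the other libraries. The 16 genes without Cd74, a sum chosen after the values had been seen, gave 950.3 to 1702 CPM in NTG and 705 to 947 CPM in TG, without overlap. Of the 17 markers, 14 had a lower fitted level in TG, with a median log2 fold change of −0.55, and −0.18 without NTG 2. Cd68, Csf1r, Mrc1 and Cd14 were lower in each TG heart, 4 of 17 against 12.3% of all genes. Fibroblast markers, 11 genes including Pdgfra, Dcn and Col1a1, summed to 7420 to 13070 CPM in NTG and 4796 to 7017 CPM in TG, without overlap, as for Serping1. Erythroid markers, 5 genes, were likewise lower in TG without overlap, at 762 to 908 CPM against 1310 to 2245 CPM. No defining marker of macrophages or fibroblasts was at 0 in these libraries. Whether these lists account for any complement value was not tested.

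Ratios within a heart were then taken to Csf1r, a macrophage gene, and to Pdgfra, a fibroblast gene, as a description chosen after the values had been seen. Per Csf1r, C1qa was 1.26, 1.34 and 1.17 in NTG and 1.37, 1.45 and 1.70 in TG, and C1qc was 0.977, 0.921 and 0.836 in NTG and 1.07, 1.20 and 1.32 in TG. Both were higher in each TG heart, but so were 35.9% of all genes tested when divided by Csf1r, and C1qb and C3ar1 overlapped. Csf1r itself was 96.8 to 176 CPM in NTG and 76.2 to 92.9 CPM in TG, a log2 fold change of −0.59 (adjusted p = 0.221, edgeR). Set against each of the 17 macrophage markers in turn, C1qa was higher in each TG heart for 5 and overlapped for 12, C1qc was higher for 6 and overlapped for 11, C1qb was higher for 1, lower for 1 and overlapped for 15, and C3ar1 overlapped for all 17. Divided by the sum of the 17, all 4 genes overlapped, and without Cd74 in that sum C1qa and C1qc were higher in each TG heart. The share of all genes with such an order was counted for Csf1r, but not for the other macrophage markers or the sums. These orders are therefore a description only. Per Pdgfra, Serping1 was 2.76, 3.33 and 3.01 in NTG and 1.95, 2.10 and 2.32 in TG, lower in each TG heart, as 2.94% of all genes tested were. The order depended on the marker chosen. Pdgfra had a log2 fold change of −0.39, beside a median of −1.05 over the 11 fibroblast markers. Serping1 was lower in each TG heart per 3 of them (Pdgfra, Tcf21 and Gsn), overlapped for 7, among them Dcn, Col1a1 and Pi16, and was higher in each TG heart per Postn. Divided by the sum of the list it was 0.038 to 0.0399 in NTG and 0.0321 to 0.047 in TG, with overlap. C3 and C4b per Pdgfra overlapped between the groups. Beside C1qa and per length, Serping1 was 0.947 to 1.23 times as high in NTG and 0.647 to 0.749 times in TG. This ratio was also chosen after the values had been seen. The share of all genes with that order beside C1qa was not counted, so it is a description only.

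**Figure D4:**
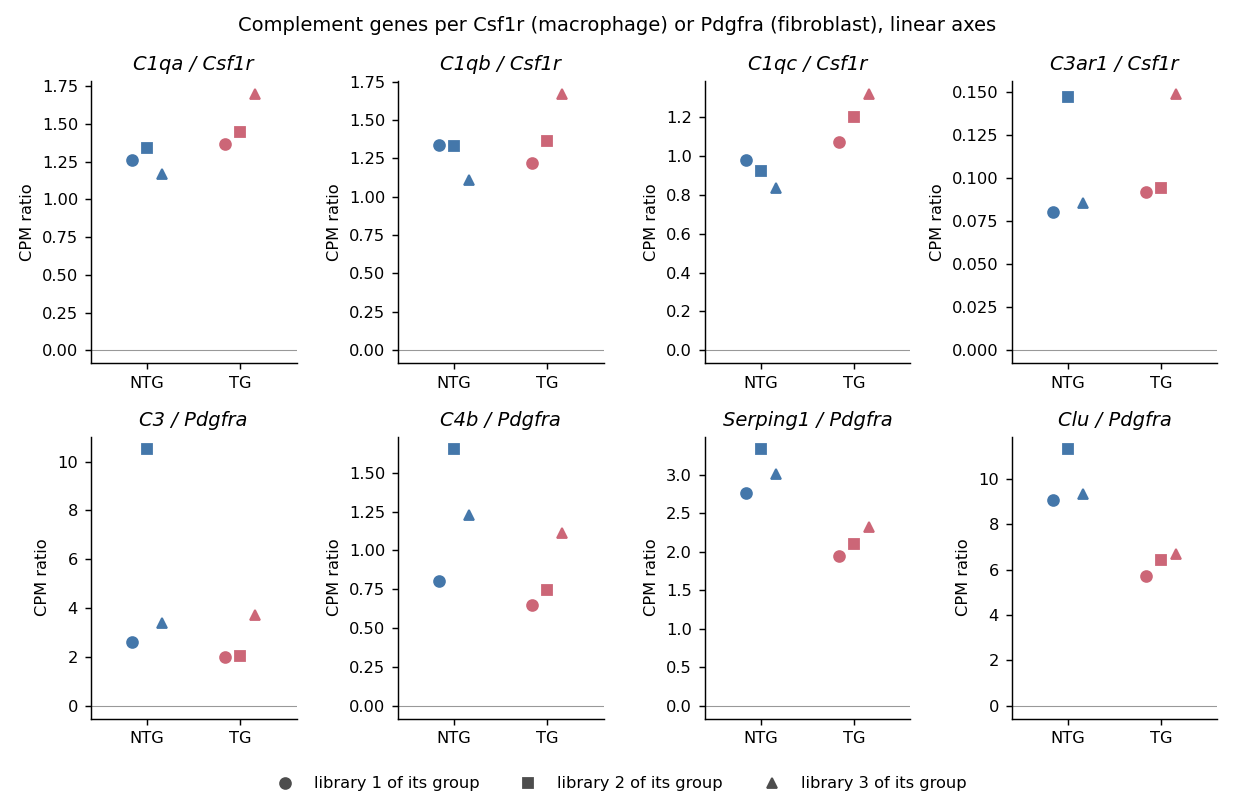
CPM of C1qa, C1qb, C1qc and C3ar1 divided by that of Csf1r (upper row) and of C3, C4b, Serping1 and Clu divided by that of Pdgfra (lower row), 1 point per library on linear axes from 0. Serping1 per Pdgfra is 2.76 to 3.33 in NTG and 1.95 to 2.32 in TG, Clu per Pdgfra is 9.05 to 11.3 and 5.71 to 6.68, and C3 per Pdgfra reaches 10.5 in NTG 2.

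The wider pathway was read from a list of 49 further complement genes. Of these, 11 had 0 counts in all 6 libraries, which allows at most 0.159 to 0.216 CPM by the limit of 3 counts per library. Among them are Mbl1, Mbl2, Fcnb, Colec10, C8a, C8b, C9, C4bp and Cd55b, most of them genes of liver or blood cells. Of the 30 that were tested, 25 had a lower and 5 a higher fitted level in TG, with a median log2 fold change of −0.49. No gene of the list passed edgeR's quasi-likelihood test. At an unadjusted p under 0.05, 11 were lower and 1 higher, where 9.76% and 8.83% of all genes were. In each TG heart against each NTG heart, 8 were lower and 2 higher, where 12.3% and 11.2% of all genes were. The median of these 30 was −0.63 without NTG 1 and −0.25 without NTG 2.

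The proteases that act beside C1q were lower in TG without overlap. C1s1 was 64.4, 118 and 71.7 CPM in NTG and 45.3, 54.9 and 62.7 CPM in TG, with a log2 fold change of −0.64 (edgeR, SE 0.24, adjusted p = 0.232). C1ra, which activates it, was 42.3, 79 and 49.8 CPM in NTG and 27.4, 40.9 and 38.9 CPM in TG, with a log2 fold change of −0.67 (adjusted p = 0.235, edgeR). Without NTG 1 these were −0.81 and −0.85, and without NTG 2 −0.33 and −0.37. The other initiating genes moved less alike. Masp1, a protease of the lectin pathway, had a log2 fold change of −0.76 (adjusted p = 0.197, edgeR) and Colec12, a collectin of the cell surface, −0.51 (adjusted p = 0.196, edgeR), both without overlap, whereas Colec11, a soluble collectin, was at −0.02. Masp1 passed the test only without NTG 1, at −0.98.

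Among the soluble inhibitors besides Serping1, Clu, which encodes clusterin, a binder of the terminal complex, was lower in each TG heart. It was 925, 1697 and 1197 CPM in NTG and 489, 692 and 649 CPM in TG, with a log2 fold change of −1.06 (edgeR, SE 0.24, adjusted p = 0.196). DESeq2 gave an adjusted p of 0.00126 and called it, as did the likelihood-ratio test and the quasi-likelihood test without NTG 1. Vtn, vitronectin, went the other way within the same role. It was 40.1, 37.1 and 37.4 CPM in NTG and 49.7, 48.7 and 49 CPM in TG, a log2 fold change of 0.36 (edgeR, SE 0.08, adjusted p = 0.196), which lies under the fold threshold.

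Further along the cascade the values were smaller or less regular. C2, cleaved by C1s, had a log2 fold change of 0.17 (edgeR, SE 0.48) on 6 to 28 counts per library, which may be undercounted. Cfp, properdin, which stabilises the alternative convertase, was at −0.13 (edgeR, SE 0.23) on 146 to 291 counts. Both overlapped between the groups. C7 of the terminal complex was at −0.80 (adjusted p = 0.255, edgeR) and passed only without NTG 1, at −1.08, and C8g, at 1.19 CPM per kilobase over all libraries, was at 0.55 with each TG heart higher. Of the membrane inhibitors, Cd59a, which blocks the terminal complex on the cell surface, was at −0.39 (adjusted p = 0.242, edgeR) and Cr1l, the regulator also called Crry, at −0.04.

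Among receptors, 8 of 9 tested had a lower fitted level in TG, with a median log2 fold change of −0.54. Without NTG 2 the median was −0.12 and 6 of 9 were lower. Itgam, the alpha chain of complement receptor 3 on myeloid cells, was at −1.23 and Vsig4, the complement receptor of resident macrophages, at −1.17 (adjusted p = 0.231 and 0.215, edgeR), and Lrp1, a scavenger receptor, was at −0.66 (adjusted p = 0.26, edgeR). Without NTG 2 these were −0.57, −0.97 and −0.48. Vsig4 passed only without NTG 1, at −1.47. The receptors most abundant per length, Calr, a C1q-binding chaperone, and Cd93 of endothelial cells, were at −0.13 and 0.10. All groups of these receptors overlapped.

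**Figure D5:**
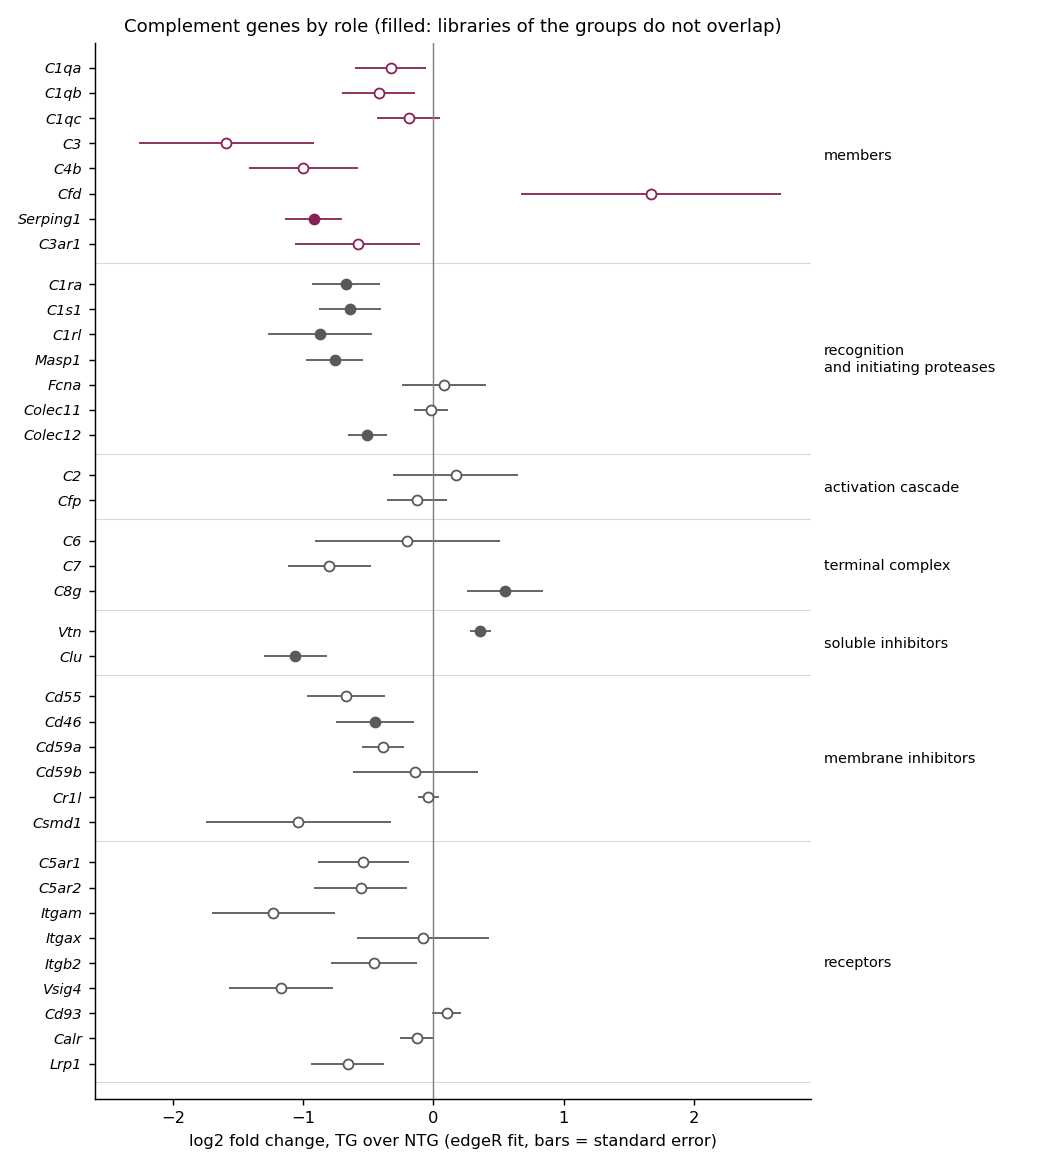
Log2 fold change, TG over NTG, with its standard error (edgeR, bars) for the 8 complement genes tested (top block, purple) and for tested genes of the wider pathway by role (grey). Filled points are genes whose TG and NTG libraries do not overlap, among them Serping1, 1 of the 8, and Cfd at 1.67 has the widest bar.

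Cytokines, receptors and transcription factors known to drive complement transcription were read as a list of 22 genes, of which 20 were tested. Of these, 16 had a lower and 4 a higher fitted level in TG, with a median log2 fold change of −0.37, and none passed edgeR's quasi-likelihood test. Leaving out NTG 1 gave a median of −0.51, and leaving out NTG 2 one of −0.07. By unadjusted p under 0.05, 6 of the inducers were lower and 2 higher, beside 9.76% and 8.83% of all genes. Without overlap of the groups, 3 of the 20 were lower and 1 higher, beside 12.3% and 11.2% of all genes. Cebpd, the C/EBP factor of the acute-phase response, was 124, 226 and 173 CPM in NTG and 86.8, 119 and 97.8 CPM in TG, without overlap, at a log2 fold change of −0.78 (edgeR, SE 0.22, adjusted p = 0.196). Cebpb, the most abundant of the list per length, was at −0.04.

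DESeq2 called Cebpd (adjusted p = 0.0267), the TNF receptor Tnfrsf1a (0.0361) and the oncostatin M receptor Osmr (0.032) lower and Irf1 (0.0372) higher, at log2 fold changes of −0.78, −0.62, −0.89 and 0.97 in edgeR's fit, where DESeq2 called 2.39% of all genes lower and 1.54% higher. Il1r1, Ifngr1 and Stat3, the last of which carries the IL-6 signal, were at −0.69, −0.34 and −0.31. Irf1, a factor of the interferon response, had a higher fitted level (adjusted p = 0.214, edgeR). Irf1 was 39.1, 19.7 and 21.8 CPM in NTG and 43.8, 42.2 and 71.6 CPM in TG, higher in each TG heart. TG 3, the TG heart with the most C1q, C3, C4b, Cfd and C3ar1, was also that with the most Irf1, whereas NTG 2, the heart with the most C1q, C3, C4b and C3ar1 of all 6, had the least Irf1.

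The genes whose profile over the 6 libraries came closest to each complement gene were found by the root mean square difference of log2 CPM, each gene centred on its own mean, among 13735 other genes. For the mean of the C1q chains, which itself varied by 0.354 on that scale, they were Fjx1, Unc93b1, an endosomal chaperone of Toll-like receptors, and Vrk2, at 0.072 to 0.082. For Serping1 they were A4galt, Mmrn1 and Cers6 at 0.058 to 0.079, where its own variation was 0.525. A4galt was 13.9, 25.4 and 20 CPM in NTG and 9.02, 11.8 and 10.8 CPM in TG. Its order of groups is that of Serping1 by selection, since it was chosen for its likeness over the same libraries.

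C3 had Cxcl14, a chemokine, Csf2rb, a cytokine receptor chain, and Serpina3h as nearest genes, at 0.181 to 0.247 beside its own 1.034. All 3 were highest in NTG 2, which the selection by likeness to C3 brings with it. Cxcl14 was 28.4, 120.2 and 44.4 CPM in NTG and 17.6, 20.2 and 29.3 CPM in TG. C4b had Bmf, Slc16a14 and Lgi2 at 0.144 to 0.163 beside 0.704, and C3ar1 had Evi2a, Emb and Ptpn6, a phosphatase of blood cells, at 0.144 to 0.156 beside 0.628. Cfd was nearest to Nkg7, a gene of cytotoxic lymphocytes, Apol9b and the immunoglobulin gene Igkc at 0.254 to 0.391 beside 1.275. Nkg7 was 1.16, 0.319 and 0.405 CPM in NTG and 0.433, 1.08 and 3.58 CPM in TG.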

How the data were processed

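The authors purified poly-A RNA, sequenced it on an Illumina NovaSeq platform and counted reads per gene with featureCounts, and they deposited raw counts per gene, 1 column per library, without normalization. The submitters' processing notes name HISAT2, DESeq2 and GRCh38, whereas the identifiers and positions match mouse GRCm38 (GENCODE vM21, 53499 of 54532 genes with identical start and end), so GRCm38 was used. Strand setting and handling of overlapping genes are not given in the sources used here. Dates stand in place of 27 gene names, none of them used here.

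TG was compared with NTG by edgeR 4.0.16 in R 4.3.3 (TMM scaling, filterByExpr by group, robust dispersions, quasi-likelihood test, Benjamini-Hochberg adjustment over 14774 genes). A call needed an adjusted p under 0.05 together with a log2 fold change beyond 0.5 in either direction, and all 6 libraries entered without covariates. DESeq2 1.42.0 and limma 3.58.1 were alternatives. CPM were TMM-scaled, and per length they were divided by the exon bases the table gives. Replicates varied by 18.7% as edgeR's common biological coefficient of variation. The fits were checked on simulated data.

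The complement genes and all lists were chosen with earlier results of these data known. Named were the 9 genes, Hint2, genes of the wider pathway and inducer lists with an unadjusted p under 0.05 or among the 2 most abundant per length in a role, and the 3 nearest genes in profile (mean CPM of at least 1, log2 CPM with a prior count of 2). Any other gene named was chosen after its values were seen. Alternatives were 3 other scalings, 2 other filters, 3 other tests, the adjusted p alone, robust = FALSE, a replicate block, and each library left out in turn. Libraries of a pair differed by a chi-square per gene of at least 14.57, so each counted as 1 replicate, and p-values measure the spread between these libraries. Intervals and limits from 0 counts cover counting error only. Some genes of the lists are not reported here.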

Additional observations from a re-analysis of the deposited data

How the results depend on the processing

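Of 14774 genes tested, edgeR's quasi-likelihood test called 0, with 2747 at an unadjusted p under 0.05, and limma-voom, the other scalings, the stricter filter, the adjusted p alone and robust = FALSE also called 0. Without the low-count filter 232 genes were called, DESeq2 called 581 and the likelihood-ratio test 545, and the count was 0 to 836 with 1 library left out. Of the 9 complement genes, DESeq2 and the likelihood-ratio test each called 1, Serping1, and 0 to 1 were called with 1 library left out. Of the wider pathway, DESeq2, the likelihood-ratio test and the fit without the filter called 2 each, and 0 to 5 were called with 1 library left out. Of the inducers, DESeq2 called 4, the likelihood-ratio test 2, and 0 to 5 were called with 1 library left out. The highest count came each time from leaving out NTG 1. The cause of these changes was not tested.

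The median log2 fold change of the 8 complement genes tested stayed below 0 under each alternative, from −0.75 to −0.04 with 1 library left out. The values of C1qa (−0.52 to 0.01), C1qc (−0.33 to 0.10) and C3ar1 (−0.90 to 0.12) changed sign without NTG 2, and no other complement gene changed sign.

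Replicate numbers are shared by the groups, but same-numbered libraries did not deviate together (correlations 0.081, 0.173 and −0.252), so the numbers were not read as pairs. With the replicate number as a block, 231 genes were called, 1 of the complement genes (Serping1, log2 fold change −0.89, adjusted p = 0.0385, edgeR), 2 of the wider pathway and 1 inducer. With 3 hearts a group, and 1 to 18 counts for Cfb and 6 to 92 for Cfd, moderate differences in these genes may have been missed. The smallest detectable difference was not measured, and Cfb may also be undercounted through its overlap with Gm20547.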

Other observations

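Some genes of the wider pathway and of the inducers were outside the tests and had low values. Cfi, which encodes factor I, the protease that cleaves C3b and C4b, had a mean of 0.913 ± 1.01 CPM in NTG and 0.136 ± 0.132 CPM in TG (SD, n = 3 each), with overlap. Hc, which encodes C5, was at 0.18 ± 0.22 CPM in NTG and 0.338 ± 0.0472 CPM in TG, with overlap, and NTG 2 was its highest library. Tnf, a cytokine of the inducer list and not of the pathway, was at 0.303 ± 0.149 CPM in NTG and 0.913 ± 0.484 CPM in TG. It was higher in each TG heart, as 11.2% of all genes tested were. Its counts were 2, 8 and 6 in NTG 1 to 3 and 12, 8 and 23 in TG 1 to 3. NTG 2 and TG 2 thus had the same count and differed by library scaling only. None of these 3 passed the low-count filter, and they were chosen after their values were seen.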
